A study of Mus musculus with 12 samples.

Results

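The potassium channel genes outside the Kv1 family comprised 66 of the 15191 genes in the authors' deposited table of genes. They are every gene of that table whose symbol begins with Kcn, apart from the Kv1 channel subunits (Kcna) and their beta subunits (Kcnab). The rule uses the name and not the measured differences, but it was set with earlier results of these data known, and it takes in only genes that the table lists, with mean counts of at least 15.01. The tissue was frontal cortex from male mice of the C57BL/6 strain, with 6 libraries of the genotype Adar2-/-/Gria2R/R and 6 libraries of Adar2+/+ litter mates that were also Gria2R/R. Both groups therefore carry the Gria2R allele, which encodes in the genome the arginine that ADAR2 otherwise writes into the GluA2 receptor mRNA by editing, so neither group is a wild type. ADAR2, the product of Adarb1, edits RNA by turning adenosines of double-stranded stretches into inosines, and the deletion is not limited by the labels to one cell type. The age of the mice is not given in the sources used here, nor is it stated that each library came from its own mouse, so the authors' p-values measure the spread between libraries.

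The deposited tables hold one comparison per gene, exon bin or editing site and no value per library, so values by sample, their SD and the depth of each library cannot be given. The gene table heads its conditions A and B without a genotype, and its differences are given here as A over B. The exon and editing tables name the genotypes. In the authors' deposited table Adarb1, the deleted gene, had a mean count of 4181 and was 4.62-fold lower in condition A (log2 -2.21, adjusted p = 3.06e-126). The direction of Adarb1 was not used to name the conditions, so the sign of a gene difference below is not set beside the sign of an exon difference.

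Potassium channels let potassium leave or enter the cell along its gradient, and so set the resting potential, end the action potential and shape the pause between spikes. Voltage-gated subunits (Kv, with Kcnq and the EAG, ERG and ELK channels of the Kcnh group) open on depolarization, inward rectifiers (Kir) pass current best near the resting potential, tandem-pore (two-pore, K2P) channels carry leak current, and calcium- and sodium-activated channels couple firing to the ions that enter with it. In cortex, Kv3 channels are known for fast spiking in parvalbumin interneurons, Kcnq channels for the M-current, Kir3 channels for slow inhibition through GABA-B receptors, and Kir4.1 for the uptake of potassium by astrocytes. A Kv1 transcript, Kcna1, is a textbook target of ADAR editing, which makes the other potassium channel genes a natural set to look through in mice without ADAR2.

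What the pore-forming members share in their coding sequence is the potassium channel signature of the selectivity filter. It was searched as 5 codons for threonine or serine, then valine, isoleucine, threonine or leucine, then glycine, then tyrosine, phenylalanine or leucine, then glycine, within the coding sequences of the GENCODE M21 annotation on GRCm38. It was present in 58 of the 66 members (87.9%), against 347 of 21534 protein-coding genes (1.61%). All 10 tandem-pore members held 2 copies and 48 other members held 1. The 8 without it were the auxiliary subunits Kcnip1, Kcnip2, Kcnip3, Kcnip4, Kcne1l, Kcne4, Kcnmb2 and Kcnmb4, which form no pore. The 30 bases around the signature are shown for 8 genes to which the results return, 1 or more from each of 7 pore-forming subfamilies, on the coding strand with the 15 bases of the signature in capitals. They lie at chr8:119625901-119625930 (minus strand) for Kcng4, chr2:168262632-168262661 (minus) for Kcng1, chr7:46427967-46427996 (plus) for Kcnc1 and chr1:172369296-172369325 (plus) for Kcnj10. Those of the other genes lie at chr15:99232923-99232952 (plus) for Kcnh3, chr14:23528404-23528433 (minus) for Kcnma1, chr2:25894361-25894390 (plus) for Kcnt1 and chr1:189256572-189256601 (minus) for the second copy in Kcnk2.
Kcng4: atgacgACCGTGGGCTATGGGgacatggtc
Kcng1: atgacaACCGTAGGCTACGGAgacatggta
Kcnc1: atgacgACACTGGGCTATGGAgacatgtat
Kcnj10: cagaccACCATCGGCTATGGCttccgctac
Kcnh3: ctcaccAGTGTGGGCTTCGGCaacgtgtcc
Kcnma1: atgtctACAGTGGGTTATGGGgacgtttat
Kcnt1: ttctcaACTGTGGGCTTCGGTgatgtgacg
Kcnk2: ctgacgACCATTGGATTTGGAgactacgtg

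Expression of the members spanned the range from barely listed to abundant. Mean normalized counts over both conditions ran from 15.2 for Kcnh8 to 11292 for Kcnh7 in the authors' deposited table, with a median of 661 over the 66 members against 624 over all genes. Levels can be compared between genes only per length, so the counts were divided by the exon length of each gene in GENCODE M21. On that scale, in counts per kb computed from the mean counts of the authors' deposited table, Kcnj4 was highest at 1671, followed by Kcnv1 at 1329, Kcnj3 at 1053, Kcnk1 at 1012, Kcnd2 at 924, Kcnf1 at 843, Kcnj9 at 822 and Kcnip3 at 815. Kcnj4 encodes the strong inward rectifier Kir2.3, Kcnj3 and Kcnj9 encode the G-protein-gated subunits Kir3.1 and Kir3.3, Kcnd2 encodes the A-type channel Kv4.2, and Kcnip3 encodes one of the KChIP proteins that bind Kv4 channels. Kcnv1 and Kcnf1 encode subunits that form no channel on their own and join Kv2 subunits. At the other end, the mean counts of the authors' deposited table came to 3.35 counts per kb for Kcnh8, 9.65 for Kcng2, 12.9 for Kcnj14 and 13.5 for Kcnn3. Whether neighbours in this order differ beyond their spread could not be tested, because the table gives no spread between libraries. Of the 83 protein-coding genes of this name in GENCODE M21, 17 were not analysed here, among them Kcnb2, Kcnj5 and Kcnq1.

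**Figure D1:**
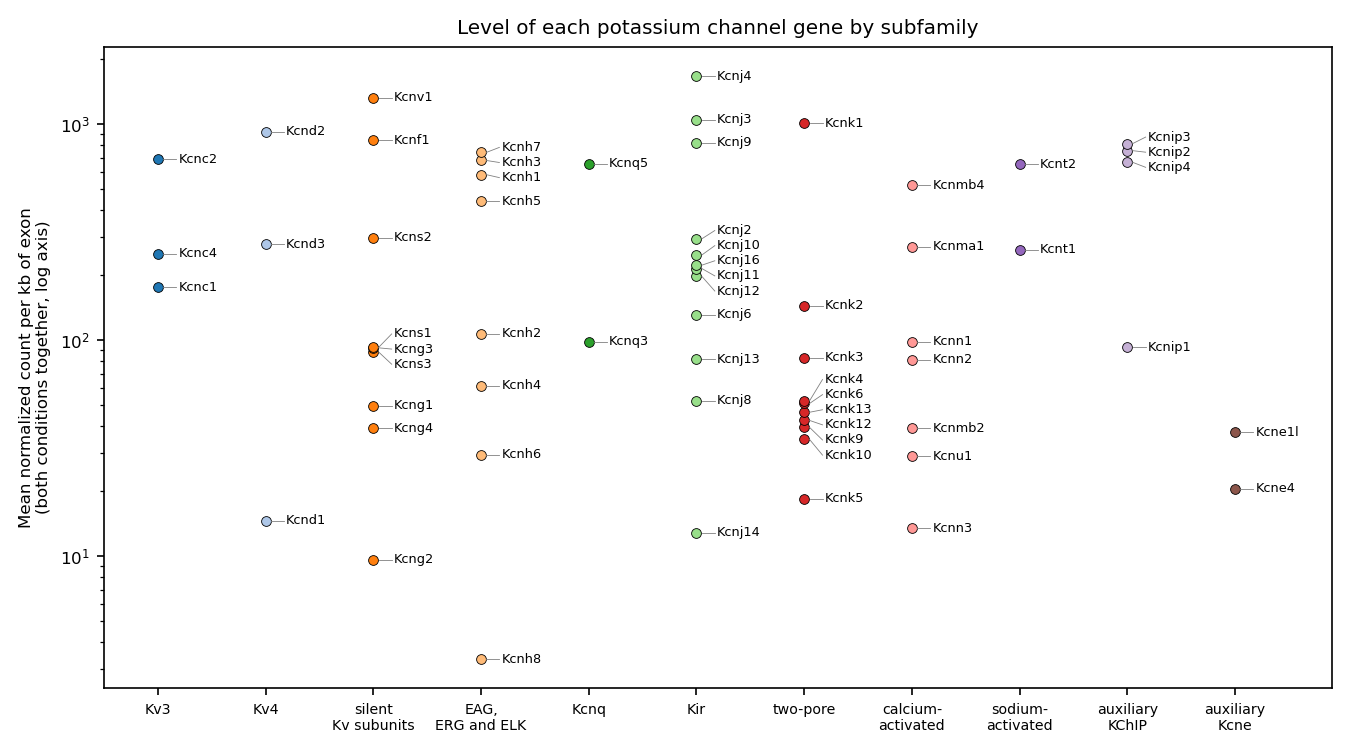
Level of 62 of the 66 potassium channel genes by subfamily, as the mean normalized count over both conditions divided by exon length in kb (log axis). Each point is 1 gene, without an error because the table gives no value per library; levels ran from 3.35 (Kcnh8) to 1671 (Kcnj4) counts per kb, and most subfamilies held both high and low members.

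No member passed the authors' test for a difference between the conditions. Their deposited table gave an adjusted p of 1 for each of the 66 genes, and the share of all genes with an adjusted p under 0.05 was 0.0197% (3 genes). At an unadjusted p under 0.05 there were 2 members (3.03%), Kcng4 and Kcng1, against 1.86% of all genes. The log2 difference of A over B ran from -0.49 to 0.56 over the members, with a median of -0.0038 against 0.0063 over all genes. The difference was positive for 30 members (45.5%) and negative for 36, where 52.9% of all genes were positive. The members lay within 1.2-fold in 58 cases and beyond it in 8 (12.1%), against 8.4% of all genes. A difference of this size depends on the count behind it: 2 of 8 members with a mean count of 15 to 100 lay beyond 1.2-fold (all genes 30.7%), 4 of 29 members with 100 to 1000 counts (13.8%, all genes 4.71%) and 2 of 29 members with 1000 counts or more (6.90%, all genes 1.44%). The shares of the middle and upper classes rest on 4 and 2 genes and were not tested. An adjusted p of 1 does not show that a gene was alike in both genotypes.

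**Figure D2:**
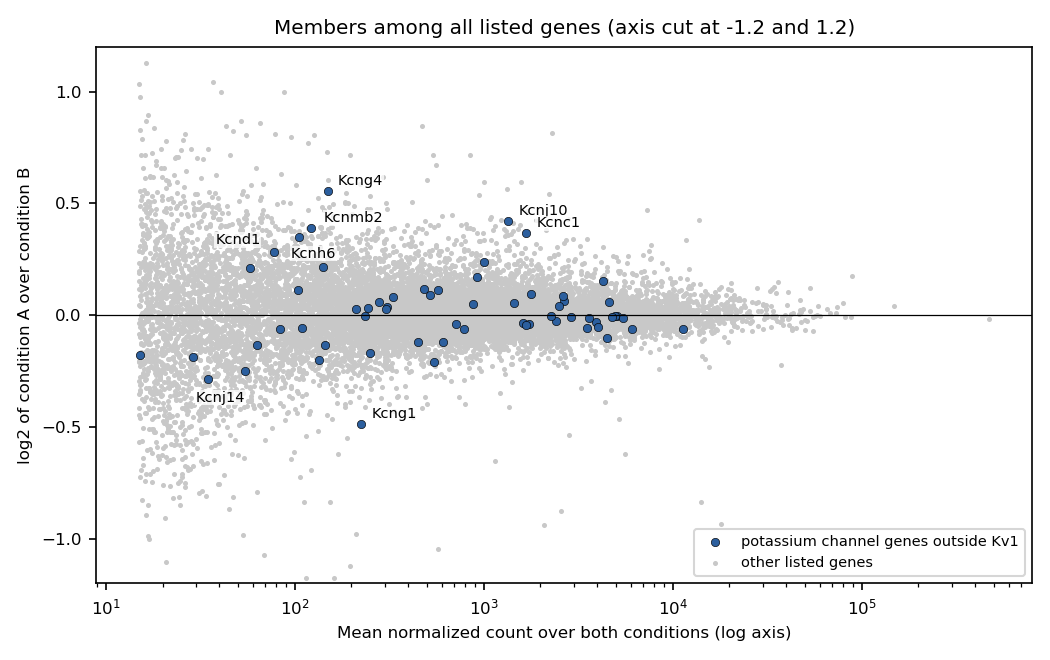
Log2 difference of condition A over condition B against the mean normalized count (log axis) for 62 of the 66 potassium channel genes (blue) and all other genes (grey). Names mark the 8 members beyond 1.2-fold, the vertical axis is cut so that a few grey genes lie outside it, and the spread of grey points narrows as counts grow.

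The widest differences, in opposite directions, belonged to a pair of silent Kv subunits. Kcng4 (ENSMUSG00000045246, chromosome 8, 119623854 to 119635680 on GRCm38) encodes Kv6.4, and Kcng1 (ENSMUSG00000074575, chromosome 2, 168260117 to 168281736) encodes Kv6.1, and both proteins change the gating of Kv2 channels that they join. In the authors' deposited table Kcng4 was 1.47-fold higher in condition A (log2 0.56, mean count 149, p = 0.00157, adjusted p = 1). For Kcng1 the authors' deposited table gave a level 1.40-fold lower in condition A (log2 -0.49, mean count 224, p = 0.00186, adjusted p = 1). A standard error implied by the deposited p, taken as two-sided under a normal approximation, was 0.18 for Kcng4 and 0.16 for Kcng1 on the log2 scale. Neither passed the adjustment over all genes. The other 7 silent subunits lay within 1.2-fold, where only 8.4% of all genes lay beyond it. Kcnv1 (Kv8.1), with a mean count of 6096, differed by -0.06 and Kcnf1 (Kv5.1), with 4035 counts, by -0.05 on the log2 scale in the authors' deposited table. Over the 9 silent subunits the median was -0.05, with 3 positive.

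Among the Kv2 to Kv4 channels, 5 of 8 differences were positive and the median was 0.12. The Kv3 subunits spanned differences near 0 to the second highest among members with 1000 counts or more. Kcnc1 (Kv3.1) was 1.29-fold higher in condition A, per the authors' deposited table (log2 0.37, mean count 1671, p = 0.195, implied standard error 0.28), whereas Kcnc2 (Kv3.2), which has the higher mean count of 4930.2, differed by -0.0036 (p = 0.987). Kcnc4 (Kv3.4) at 0.17 (p = 0.150) lay between them in the authors' deposited table. Of the Kv4 subunits, which carry the A-type current of dendrites, Kcnd2 (Kv4.2) was at -0.0092 (p = 0.727) and Kcnd3 (Kv4.3) at 0.07 (p = 0.785) in the authors' deposited table. The weakly expressed Kcnd1 (Kv4.1), with a mean count of 77.4, was at 0.28 (p = 0.346) in the authors' deposited table. The KChIP proteins, calcium-binding partners of Kv4, spanned -0.03 to 0.11 with a median of 0.04, and Kcnip1 had the smallest p of the 4 in the authors' deposited table (log2 0.11, p = 0.209).

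Kcnc1 is known from fast-spiking interneurons and was positive, while Kcnc2, also a Kv3 subunit, was at -0.0036 in the authors' deposited table. Over all genes 52.9% were positive. Microglia markers were positive in 8 of 10 and astrocyte markers in 7 of 10. Oligodendrocyte markers were positive in 5 of 10, and endothelium and pericyte markers in 3 of 10. Of 10 inhibitory neuron markers, 8 were positive, with a median log2 difference of 0.13, so a positive sign was not particular to them. None of the 10 passed the adjusted test or was listed at 0. The authors' deposited table gave 0.28 for Pvalb (p = 0.189), 0.34 for Gad2 (p = 0.167) and 0.32 for Npy (p = 7.08e-05, adjusted p = 0.199), the 3 highest of the 10. The authors' deposited table gave 0.15 for Gad1, 0.13 for Slc32a1 and Sst, 0.10 for Lhx6 and Vip, -0.0073 for Cck and -0.02 for Calb2. Their summed mean count over both conditions was 27529, and sums by condition were not used here. In bulk tissue, fewer cells of a type and less RNA per cell cannot be told apart, and the part of inhibitory neurons in the Kcnc1 value was not tested. Striatal neuron markers, of which 9 were analysed, had a median of 0.19 with 6 positive and a summed mean count of 4378. Excitatory neuron markers had a median of 0.11 with 8 of 12 positive and a summed mean count of 66161, and the authors' deposited table gave a mean count of 17440.1 for Slc17a7, the vesicular glutamate transporter that defines cortical excitatory neurons. The medians were 0.01 for 10 oligodendrocyte markers, 0.07 for 6 oligodendrocyte precursor markers and -0.01 for 5 thalamic neuron markers.

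Several Kcnq and Kcnh channels were among the members with the highest counts, and all 4 Kcnq genes and 7 of 8 Kcnh genes lay within 1.2-fold. Over all genes only 8.4% lay beyond 1.2-fold (1.44% with 1000 counts or more), so these counts are not a result about the 2 groups. The 4 Kcnq genes had a median difference of 0.03, with 2 positive. Kcnq5 (Kv7.5) with 5061 counts was at -0.0034 (p = 0.922) and Kcnq3 (Kv7.3), a subunit of the M-current, at 0.06 (p = 0.646) in the authors' deposited table. In the Kcnh group the median was 0.06 with 5 of 8 positive. Kcnh7 (Erg3), the member with the highest mean count, was at -0.06 (p = 0.425) in the authors' deposited table. Kcnh1 (Eag1) had the smallest p of the group in the authors' deposited table, with a log2 difference of 0.15 at 4288 counts (p = 0.0826, implied standard error 0.09). Kcnh6 (Erg2) was 1.28-fold higher in condition A with a mean count of 105 in the authors' deposited table, and its p was 0.353.

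Inward rectifiers held 8 negative and 4 positive differences with a median of -0.02. Kcnj10, which encodes the astrocytic Kir4.1, was 1.34-fold higher in condition A, per the authors' deposited table (log2 0.42, mean count 1344, p = 0.128, implied standard error 0.28). Its partner in astrocytes, Kcnj16 (Kir5.1), was at 0.05 (p = 0.568) in the authors' deposited table. Of 10 astrocyte markers 7 were positive, with a median of 0.05, a summed mean count of 158063 and no gene past the adjusted test or at 0. In the authors' deposited table Gfap was at 0.27 (p = 0.205), Slc1a2 at 0.17 (p = 0.111) and Aqp4 at -0.06 (p = 0.650), so single astrocyte genes differed in sign, and their part in the Kcnj10 value was not tested. Kcnj9 lies 11.9 kb from Kcnj10 on chromosome 1 and was at -0.06 (p = 0.516) in the authors' deposited table. The other Kir3 subunits lay on both sides of 0. Kcnj3 (Kir3.1) with 5491 counts was at -0.01 (p = 0.854) and Kcnj6 (Kir3.2) with 1005 counts at 0.24 (p = 0.0560) in the authors' deposited table. Kcnj4 (Kir2.3), highest per length of all members, was at -0.01 (p = 0.939) and Kcnj12 (Kir2.2) at -0.21 (p = 0.0581) in the authors' deposited table. Kcnj14 (Kir2.4), with 35.0 counts, was 1.22-fold lower in condition A with p = 0.280 in the authors' deposited table. Kcnj8 (Kir6.1), known from pericytes, was at -0.20 (p = 0.191) in the authors' deposited table. Endothelium and pericyte markers, pooled in 1 list, were negative in 7 of 10, with a median of -0.02 and a summed mean count of 12256. In the authors' deposited table Cspg4 was at 0.23 and Vtn at 0.09, while Pdgfrb was at -0.07, Abcc9 at -0.04 and Rgs5 at -0.0074. The part of pericytes in the Kcnj8 value was not tested. Kcnj13 (Kir7.1), known from choroid plexus, was at 0.11 (p = 0.684) in the authors' deposited table. Of 7 choroid plexus and ependyma markers 3 were analysed, with 2 positive, a median of 0.11 and a summed mean count of 172. That median is the value of Kl alone. In the authors' deposited table Ttr was at 0.15 with 34.7 counts and Foxj1 at -0.06 with 34.0 counts.

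Tandem-pore channels had the narrowest range of the subfamilies with 7 or more members. All 10 lay within 1.2-fold, from -0.13 for Kcnk13 (Thik1, the leak channel of microglia; p = 0.329) to 0.12 for Kcnk9 (Task3; p = 0.539) in the authors' deposited table. A count of 0 beyond 1.2-fold among 10 genes is close to the share of 8.4% over all genes. Of 10 microglia markers 8 were positive, the side opposite to Kcnk13, with a median of 0.10 and a summed mean count of 13684. Kcnk1 (Twik1), the tandem-pore member with the highest mean count at 2262, was at -0.0015 (p = 0.832) and Kcnk2 (Trek1) with 714 counts at -0.04 (p = 0.534) in the authors' deposited table.

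Channels grouped by symbol as calcium-activated, with their auxiliary subunits, had a median of -0.04 with 3 of 7 positive. That group includes Kcnu1, and gating by calcium was not checked gene by gene. Kcnma1, the pore of the large-conductance BK channel, had 4614 counts and a log2 difference of 0.06 (p = 0.627) in the authors' deposited table. Its neuronal beta subunit Kcnmb4 was at -0.04 (p = 0.883) in the authors' deposited table. The inactivating beta subunit Kcnmb2 was 1.31-fold higher in condition A, per the authors' deposited table (log2 0.39, mean count 122, p = 0.0547, implied standard error 0.20). The small-conductance SK subunit Kcnn2 was at -0.12 (p = 0.173) in the authors' deposited table. Among the sodium-activated channels, Kcnt1 (Slack) with 2496 counts was at 0.04 (p = 0.792) and Kcnt2 (Slick) with 4505 counts at -0.10 (p = 0.261) in the authors' deposited table. The Kcne subunits, single-span modulators of Kv channels, were both low: the authors' deposited table gave 0.21 for Kcne1l with 57.9 counts (p = 0.344) and -0.25 for Kcne4 with 54.8 counts (p = 0.449). Kcnd3 and Kcnmb4 have antisense genes in GENCODE M21. Since it is not stated whether counting used the strand, reads of gene and antisense gene may be mixed. Genes on the opposite strand of the other members were not searched for.

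**Figure D3:**
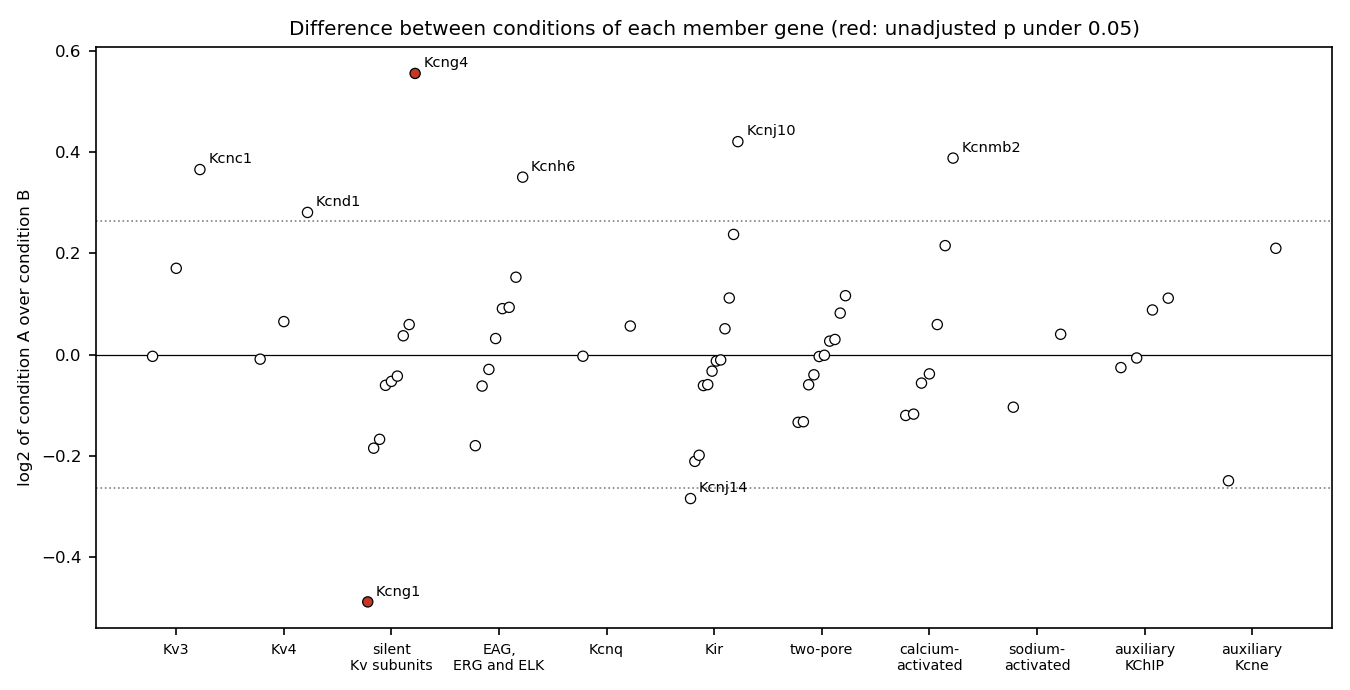
Log2 difference of condition A over condition B for 62 of the 66 potassium channel genes, grouped by subfamily. Each point is 1 gene without an error, red points had an unadjusted p under 0.05, the dotted lines mark 1.2-fold in either direction, and Kcng4 (0.56) and Kcng1 (-0.49) stand at the 2 ends; all deposited adjusted p-values were 1.

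Other proteins that these channels depend on spanned a narrower range of differences and were fewer, with a higher median mean count of 3878. Their median absolute log2 difference was 0.043, against 0.038 for all genes with 1000 counts or more. The narrower range is therefore not a result about these genes. Of 33 partners and regulators, such as the Kv4 partners Dpp6 and Dpp10, the Kir6 partners Abcc8 and Abcc9, GABA-B receptors, calmodulin and ankyrin G, 31 were analysed. None had an adjusted p under 0.05, none had an unadjusted p under 0.05, and none lay beyond 1.2-fold, where the shares over all genes were 0.0197%, 1.86% and 8.4% (1.44% beyond 1.2-fold with 1000 counts or more). A count of 0 among 31 genes is close to these background shares and is not a result about the partners. Differences were positive for 12 and negative for 19, with a median of -0.02. They ran from -0.14 for Lrrc38, a BK gamma subunit (p = 0.590), to 0.23 for Ank3, which encodes ankyrin G and anchors Kcnq channels at the axon initial segment (p = 0.159), in the authors' deposited table. Dpp6 was at 0.08 (p = 0.493) and Dpp10 at 0.01 (p = 0.695) in the authors' deposited table.

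Exon usage asks whether part of a transcript, rather than the whole gene, differed, and here the table names the genotypes, so differences are knockout over control. The members had 501 exon bins in 64 genes, 500 of them with a p; Kcnh8 and Kcnj11 had none. No member bin had a deposited adjusted p under 0.05, where the share over all bins was 0.00738% (11 bins). An unadjusted p under 0.05 was found for 7 member bins (1.40%), against 1.67% of all bins. A difference beyond 1.2-fold was found for 23 member bins (4.6%), against 5.2% of all bins. Knockout was higher in 256 bins and lower in 244, and the median log2 difference was 0.0040, against 0.00069 over all bins. The dispersion deposited for each bin had a median of 0.0139 over the member bins, which corresponds to a coefficient of variation of 11.8% between libraries beyond counting error, against 12.7% over all bins.

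**Figure D4:**
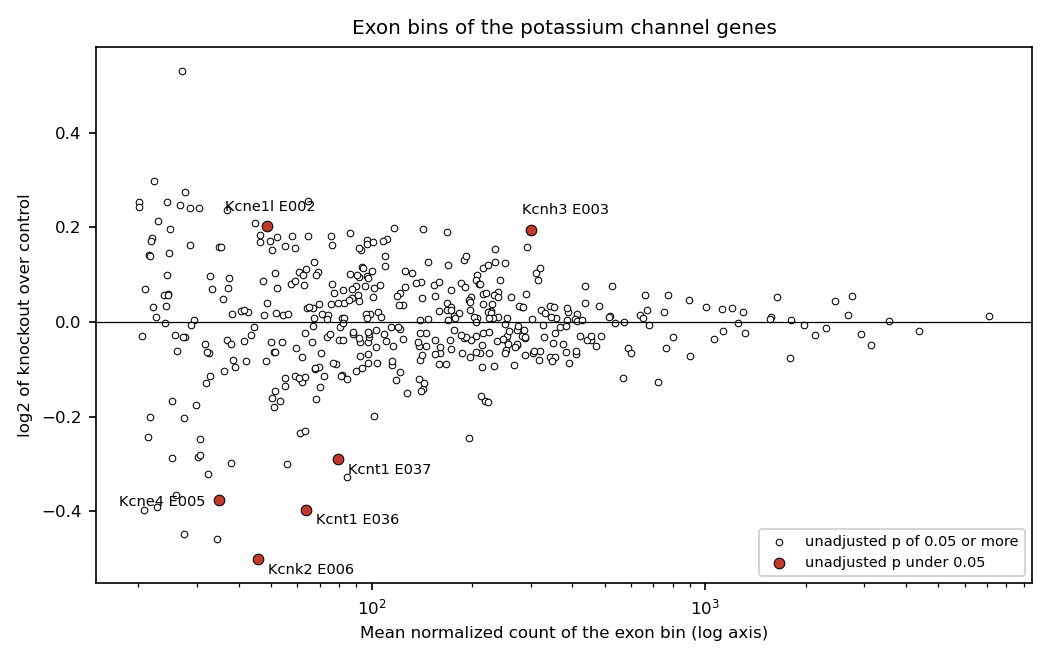
Log2 difference of knockout over control for 450 of the 500 exon bins of the potassium channel genes against the mean normalized count of the bin (log axis). Each point is 1 bin, named red points are the 6 drawn bins with an unadjusted p under 0.05, and the spread narrows with count, so that no bin with a mean count of 200 or more lay beyond 1.2-fold.

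The bins with the smallest p were spread over 9 genes, with 6 of the 10 bins lower in knockout and 4 higher. Bin E006 of Kcnk2 was lower in knockout in the authors' deposited table (log2 -0.50, mean count 45.6, p = 0.00308, adjusted p = 1). The other 7 bins of Kcnk2 lay between -0.11 and 0.26, and bin E003, the highest of them, had p = 0.0811 in the authors' deposited table. In Kcnt1, with 46 bins, E036 was at -0.40 (63.4 counts, p = 0.00805) and E037 at -0.29 (79.1 counts, p = 0.0361) in the authors' deposited table. The adjacent bins E034 at -0.29 (p = 0.219) and E035 at -0.30 (p = 0.119), picked out after their values were seen, lay on the same side in the authors' deposited table. Away from them, the lowest Kcnt1 bin was E012 at -0.32 (p = 0.155) in the authors' deposited table. Neighbouring bins can share reads, so the 4 adjacent bins are not independent of each other, and adjusted p was 1 for each. Kcne4 E005 was at -0.38 (34.9 counts, p = 0.0137) and Kcne1l E002 at 0.20 (48.6 counts, p = 0.0304) in the authors' deposited table, each the only bin of its gene that was analysed. The more abundant bin Kcnh3 E003 was at 0.19 (299.7 counts, p = 0.0198) in the authors' deposited table. Kcnh1 E007 at -0.30 (p = 0.0576), Kcnma1 E014 at 0.16 (p = 0.0673) and Kcnj14 E001 at -0.17 (p = 0.0742) were also among the 10 in the authors' deposited table. The highest difference of any member bin, Kcnd3 E009 at 0.53, had p = 0.164 with 27.1 counts in the authors' deposited table. Positions of the bins were not analysed here, so they could not be placed on an exon.

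**Figure D5:**
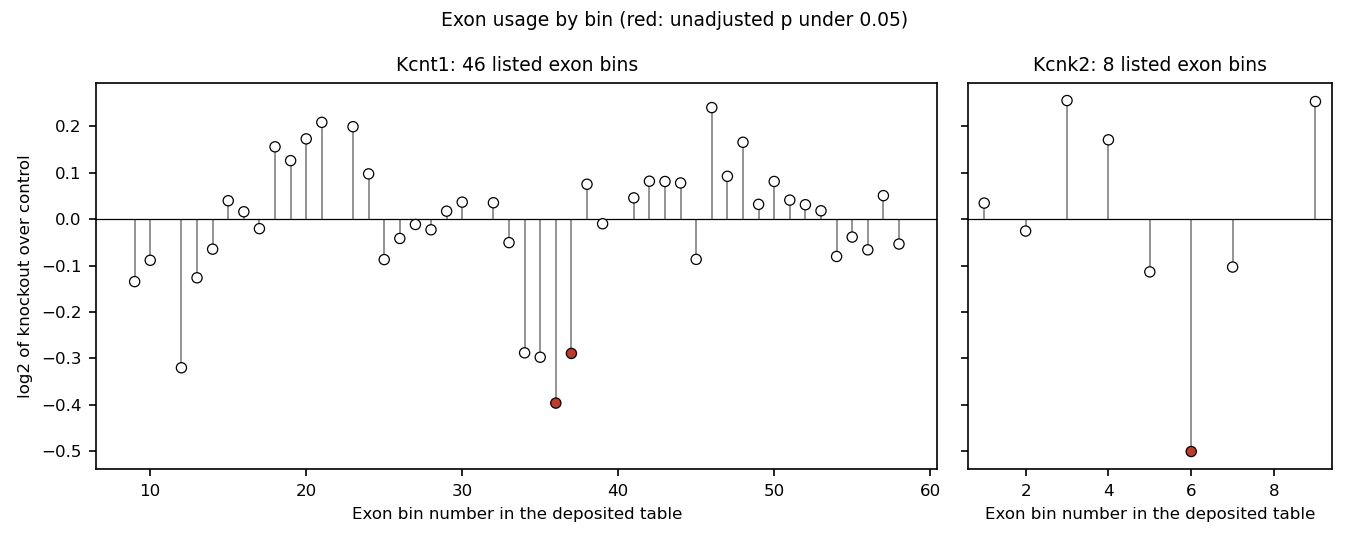
Log2 difference of knockout over control along the exon bins of Kcnk2 and Kcnt1, in the order of their bin numbers. Each point is 1 bin without an error; Kcnk2 E006 (-0.50) and Kcnt1 E034 to E037 (-0.29 to -0.40) lie below the other bins around them, and none had an adjusted p under 0.05.

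Among the 5 genes with the widest gene-level differences, no bin had an unadjusted p under 0.05, against 1.67% of all bins. With so few bins this is close to the background share and is not a result about these genes. Kcng4 had 3 bins between -0.25 and 0.15, with a smallest p of 0.209 in the authors' deposited table. Kcng1 had 3 bins between -0.11 and 0.17, with a smallest p of 0.290 in the authors' deposited table. Kcnc1 had 7 bins between -0.33 and 0.13 (smallest p = 0.104) and Kcnj10 had 3 bins between -0.04 and 0.06 (smallest p = 0.262) in the authors' deposited table. Kcnmb2 had 3 bins between -0.14 and 0.14, with a smallest p of 0.427 in the authors' deposited table. By subfamily, 33 of 76 Kcnq bins, 41 of 85 Kcnh bins, 37 of 74 calcium-activated bins and 46 of 81 sodium-activated bins were higher in knockout. Over all bins with a p, 75033 of 149137 were higher. Exon usage sets a bin against the rest of its gene, so signs within a gene tend to offset each other. A near balance of signs is therefore not a result about these genes.

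No RNA editing site of these genes was in the authors' deposited table of edits, which lists 143 sites in 95 genes, 69 of them (48.3%) with an adjusted p under 0.05. A single site of that table lay in any gene whose symbol begins with Kcn, and it belonged to Kcna1, a Kv1 channel outside the group described here. Editing levels of the 66 members were therefore not analysed here, and the coverage that a site needed to be listed is not given in the sources used here.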

How the data were processed

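Per the labels' protocols, Trizol extracts of total RNA were cleared of ribosomal RNA with beads and made into stranded libraries. Without giving roles, the submitters' processing notes name SAMtools 01.19.0, DESeq, HTSeq, TopHat2 2.0.6, the build mm9 and Bowtie2 2.02.0. Not given in the sources used here were the exon program, the editing caller and the strand setting of counting. The deposited values are mean normalized counts (a signal), log2 ratios, p-values and adjusted p-values from the authors, per the file headers. The exon table adds a deposited dispersion, a score of spread in the count model, and the editing table a deposited percent of edited reads. Signs were turned so that differences read condition A over B and knockout over control. Genes were grouped by symbol into subfamilies. Exon lengths, gene positions and sequences came from GENCODE M21 on GRCm38, in which all 66 members matched by symbol, while the files use mm9, so no coordinates of the files were used. The exon table's 13536 gene IDs were matched to symbols for 12642. The threshold was a deposited adjusted p under 0.05, which the authors made over about 25289 gene tests, more than the 15191 listed with mean counts of at least 15.01. No count test could be fitted and no SD computed. The implied standard error is the log2 difference divided by the normal quantile of its p, given for p under 0.5. Named genes were, in each subfamily, the 2 with the highest mean count and the 2 with the smallest p, with all at an unadjusted p under 0.05, the 3 widest differences in each direction with at least 100 counts, and those holding 1 of the 10 exon bins with the smallest p; other genes are named where counts are listed, and the values of some members are not reported here or drawn in the figures. Members, lists and rules were chosen with earlier results of these data known. Summaries were made in Python 3.11.15 with pandas 2.3.3, and the adjustments of p were checked on simulated p-values.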

Additional observations from a re-analysis of the deposited data

How the results depend on the processing

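Alternatives changed only the adjustment, the threshold, the count minimum or, for the median, the weighting and centring, since the tables give no value per library. The counts past the threshold stayed at 0 for member genes, partners and exon bins under each alternative. These were Benjamini-Hochberg or Bonferroni adjustment over the listed genes or bins alone and an adjusted p under 0.1. Others were a count minimum of 100 for genes or 50 for bins and, for bins, a Simes p per gene. The threshold of 0.1 could not change the counts, since every deposited adjusted p of these genes and bins lay far above it. Bonferroni adjustment cannot pass more than Benjamini-Hochberg, so it adds no separate check. For editing no alternative could change the count, since 0 sites lay in member genes; an adjusted p under 0.01 and a difference of at least 10 points were the alternatives listed. At an unadjusted p under 0.05 the counts were 2 genes, 0 partners and 7 bins. The smallest adjusted p of a member gene over listed genes was 0.993, for Kcng4. The median log2 difference of the members was -0.0038, and -0.0024 with at least 100 counts, -0.0092 weighted by count and -0.010 after subtracting the median of all genes. Leaving out a library was not possible. No paired analysis was possible because the tables hold no value per library and the numbers of the labels mark no litter. Depth per library is unknown, and genes or bins with few counts differ more widely.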

Other observations

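Kcnb2 (Kv2.2) was not analysed here at the gene level but had 2 exon bins. In the authors' deposited table E001 was at a log2 difference of 0.02 (323 counts, p = 0.784) and E003 at -0.01 (627 counts, p = 0.900), knockout over control. On chromosome 10, which also carries Adarb1, the members Kcnc2 and Kcnmb4 lie 34.9 Mb and 39.0 Mb from it on GRCm38, and the authors' deposited table gave differences of -0.0036 for Kcnc2 and -0.04 for Kcnmb4, A over B.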
